A study of Mus musculus with 8 samples.

Results

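Alveolar macrophages of mice that lacked the nuclear receptor PPARγ in CD11c-expressing cells were compared with those of control mice 11 days after birth. The comparison used 4 of the 8 arrays of the series, 2 of knockout cells and 2 of control cells, and each array held RNA of lung cells sorted from 2 pooled mice. All mice were on a C57BL/6 background and carried loxP-flanked Pparg alleles. Controls (PPARg fl/fl) had no recombinase, and knockouts (CD11c-Cre/PPARg fl/fl) carried Cre under the CD11c promoter, which also acts in other CD11c-expressing cells such as dendritic cells. Lungs were digested with collagenase IV and DNaseI, and live CD45+ Siglec-F+ cells with high CD11c and high autofluorescence were sorted. The gate was low for CD11b in controls and high for CD11b in knockouts, so genotype and CD11b gate cannot be told apart in any value below. The labels call the control cells mature alveolar macrophages and the knockout cells arrested immature precursors. The other 4 arrays, knockout and control precursors at day 2, entered only the shared estimate of the spread and the comparison of both ages.

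PPARγ is a nuclear receptor that binds DNA as a partner of RXR, is activated by fatty acids and their derivatives, and switches on genes of fatty acid uptake, storage and breakdown. Alveolar macrophages live in the air spaces and clear surfactant, a lipid-rich film, and they arise from fetal monocytes in the first days of life. GM-CSF from the lung epithelium induces PPARγ in these precursors.

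Values are log2 signals, a difference is knockout minus control with its standard error (SE, n = 2 arrays per group), and called genes are those with an adjusted p below 0.05. Fold values are 2 to the power of that difference. Pool 1 and pool 2 are the replicate numbers of the labels. The labels do not say that the pools came from separate litters, so p-values measure the spread between these pools. Fewer cells of a type and less RNA per cell cannot be told apart in such pools. Across genes, r was 0.998 between the control arrays, 0.997 between the knockout arrays and 0.982 to 0.984 between the groups. The arrays were brought to a common distribution before deposit, so a shift of all genes cannot be seen.

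Of 18782 genes tested, 3500 (18.6%) were called, 1755 higher (9.34%) and 1745 lower (9.29%) in knockouts. Most of these differences were small, with a median size of 0.52. At least 2-fold differences were called for 648 genes (3.45%), 348 higher (1.85%) and 300 lower (1.6%), at least 4-fold ones for 88 and 48, and at least 8-fold ones for 26 and 14. The count of called genes fell when any 1 day 11 array was left out, and the counts at 2-fold or more changed less for their size. Such a fit leaves 1 array in a group, which weakens the test whatever that array holds. A call lost in this way, here or below, does not by itself show that it rests on that array. Scaled to the level of ribosomal protein genes, the median of all genes shifted by -0.095 and the calls were 1143 higher and 2523 lower, so the even split holds only relative to the common distribution. A signal of 6 was taken here as a low level, and 124 of the 348 genes higher by 2-fold or more had a control mean under it, while 94 of the 300 lower ones had a knockout mean under it. No detection calls were used, so a signal under 6 is not shown to be above background, and a fold against it describes the deposited values and gives no firm rank.

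**Figure D1:**
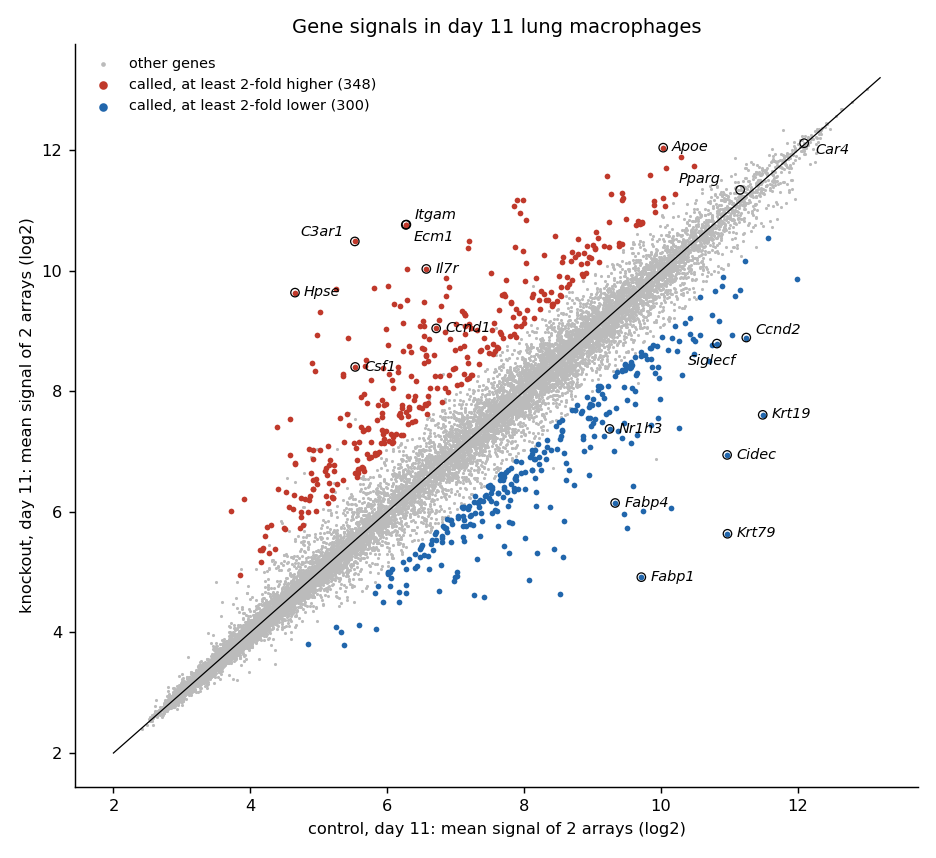
Mean log2 signal of each gene in 2 knockout arrays (vertical axis) against 2 control arrays (horizontal axis) at day 11, with equal signal on the diagonal. Red points are the 348 genes called at least 2-fold higher and blue points the 300 called at least 2-fold lower, and Pparg and Car4 lie close to the diagonal.

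The targeted gene was not lower by its own probe set. Pparg read 11.2 and 11.1 in controls and 11.3 and 11.4 in knockouts, a difference of 0.19 ± 0.08 (adjusted p = 0.183). No source used here gives the position of its probes relative to the deleted part, so this value does not check the deletion. Among the genes of the sorted surface proteins, Itgam differed most. Itgam, which encodes CD11b, was 6.22 and 6.32 in controls and 10.9 and 10.7 in knockouts, 22.5-fold higher (4.49 ± 0.10, adjusted p = 8.37e-07). Siglecf, the lectin that marks alveolar macrophages and eosinophils, was 10.9 and 10.7 against 8.73 and 8.85, 4.07-fold lower (-2.02 ± 0.11, adjusted p = 2.9e-05), although both gates required the protein. Itgax (CD11c) and Ptprc (CD45) were at 10.8 or more in all 4 pools and differed by 1.22-fold or less. The same held for Adgre1, a macrophage adhesion receptor that is not part of the gate described above. Small as they were, these differences were called, Itgax (adjusted p = 0.0145) and Adgre1 (0.0184) higher and Ptprc (0.0181) lower. Under the ribosomal protein scaling Itgax and Adgre1 lost their calls, and all 3 genes lost them without some single day 11 arrays.

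Of the 15 largest falls, Krt79, Fabp1, Cidec, Acaa1b, Krt19, Marco and Fabp4 are in the alveolar macrophage or PPAR and lipid droplet lists, and the others are in none of the lists. Krt79, a keratin that alveolar macrophages express, was 11.0 and 10.9 in controls and 5.44 and 5.83 in knockouts, 40.3-fold lower (-5.33 ± 0.13, adjusted p = 1.1e-06). Fabp1, a cytosolic fatty acid carrier, was 9.89 and 9.54 against 4.94 and 4.90, 27.8-fold lower against a low knockout signal (-4.79 ± 0.16, adjusted p = 4.53e-06). Both genes went from a high signal to one under 6 in both knockout pools. Cidec, a lipid droplet protein that fuses droplets, was 11.0 and 10.9 against 7.09 and 6.80, 16.2-fold lower. Tc2n, a protein with tandem C2 domains, was 10.2 and 10.1 against 5.76 and 6.38, 16.8-fold lower. The keratin Krt19 fell 14.7-fold, the peroxisomal thiolase Acaa1b 14.8-fold, the scavenger receptor Marco, which takes up bacteria and particles, 13.6-fold, and the organic anion transporter Slco2b1 13.1-fold. The rest of the 15 largest falls were 7.34-fold to 11.2-fold, namely Wfdc10, the leptin receptor Lepr, the potassium channel Kcnk5, the fatty acid carrier Fabp4, the tight junction gene Cldn1, the serotonin receptor Htr2c and Vstm2a. In all 15 the control and knockout arrays did not overlap, which the choice of these genes required and which held for 56.3% of all genes tested.

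**Figure D2:**
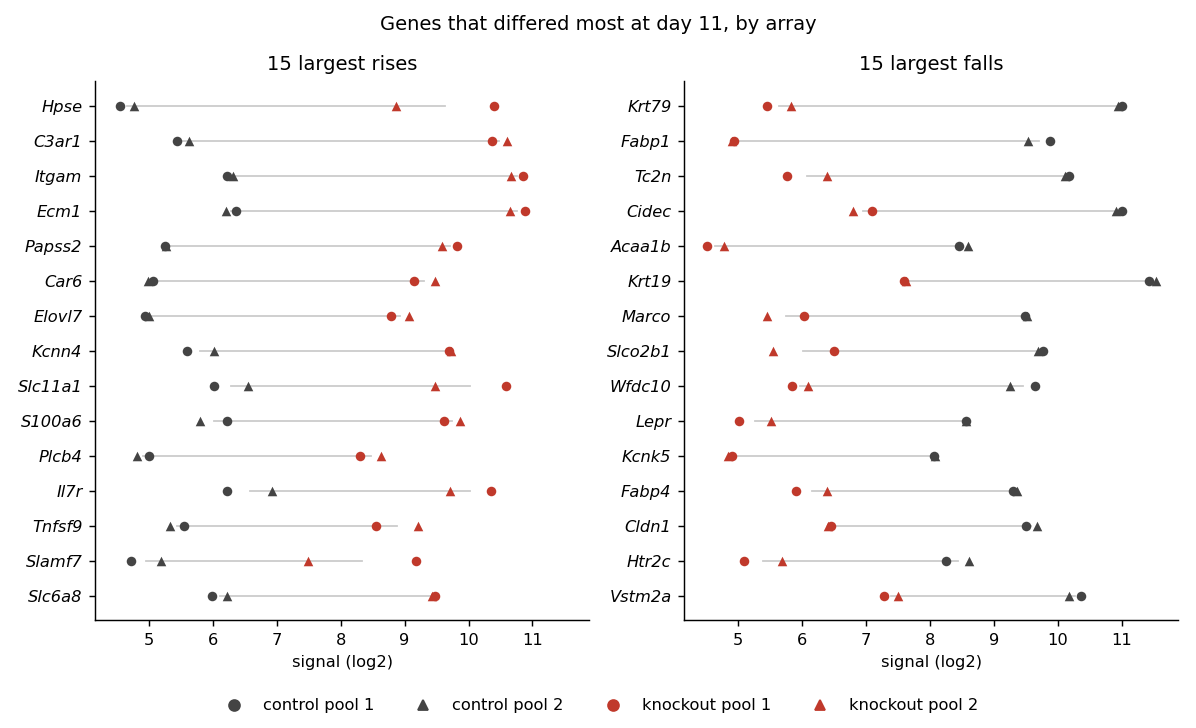
Log2 signal on each array for the 15 largest called rises (left) and falls (right) at day 11, with control pools in grey, knockout pools in red, pool 1 as circles, pool 2 as triangles and a line between the group means. Krt79 fell from 11.0 and 10.9 to 5.44 and 5.83, and Hpse and Slamf7 show the widest gaps between the knockout pools among the rises.

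The promoter of Fabp1 is shown because, of the 15 largest falls, it alone among those with a RefSeq promoter held a match to the DR1 element that PPAR and RXR bind. The element was searched as 2 copies of AGGTCA spaced by 1 base, with at most 2 mismatches in 12 bases, on both strands, in the 250 bases before the start (RefSeq, GRCm38.p6, chr6:71199629-71199878, plus strand). Capitals mark the match, which lies on the minus strand from -67 to -55 with 1 mismatch.
Fabp1: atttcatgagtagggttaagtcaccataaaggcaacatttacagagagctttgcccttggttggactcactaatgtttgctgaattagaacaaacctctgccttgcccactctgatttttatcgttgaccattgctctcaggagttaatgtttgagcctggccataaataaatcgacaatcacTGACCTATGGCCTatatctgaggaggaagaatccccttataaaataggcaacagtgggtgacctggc
Such a match was in 9 of the 255 promoters of genes called at least 2-fold lower (3.53%) and in 419 of 14714 promoters of all genes with one (2.85%). Of the 300 genes at least 2-fold lower, 255 had a promoter in the table. A match is a description of these letters and no evidence of binding.

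Of 37 measured genes typical of alveolar macrophages, 19 were called lower, 2 were called higher and 16 were not called, and the median difference was -0.41 against -0.002 over all genes. By 2-fold or more, 11 were lower and none higher. Siglecf, used in the gate, is a member, as are Krt79, Fabp1, Cidec, Krt19, Marco and Fabp4, named above among the largest falls. The lists of this report were chosen with earlier results of these data known. Their counts therefore describe these data and give no independent support. Gal, which encodes the neuropeptide galanin, was 8.80 and 7.96 in controls and 6.01 and 6.14 in knockouts, 4.95-fold lower. Il18, an inflammasome-processed cytokine, was 10.9 and 10.8 against 9.26 and 9.09, 3.20-fold lower. Several genes of the same list kept high signals in knockouts. The carbonic anhydrase Car4 was 12.07 and 12.11 in controls and 11.99 and 12.24 in knockouts (0.03 ± 0.09, adjusted p = 0.915). Its sign turned under the ribosomal protein scaling (-0.07) and without knockout pool 2 (-0.10). Plet1 was 12.4 and 12.5 against 12.3 and 12.4 (-0.11 ± 0.07, adjusted p = 0.38). The called rises were the cysteine protease Ctsk (1.55-fold) and the inhibitory receptor Cd200r1 (1.92-fold).

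PPAR target and lipid droplet genes moved both ways, with more falls. Of 31 measured, 14 were lower, 8 of them by 2-fold or more, and 5 were higher, none by 2-fold (3 higher without control pool 2, without knockout pool 1, without either day 2 control array or under the ribosomal protein scaling). Beside Cidec, Fabp4 and Acaa1b, the mitochondrial uncoupling protein gene Ucp3 was 8.06 and 7.50 in controls and 5.68 and 5.97 in knockouts, 3.87-fold lower (-1.95 ± 0.18, adjusted p = 0.000211). Angptl4, a lipoprotein lipase inhibitor, fell 3.14-fold, Gpd1, which makes glycerol phosphate for triglycerides, 2.70-fold, Plin1, a droplet coat protein, 2.51-fold, and Dgat1, which makes triglycerides, 2.42-fold. Other falls were smaller. Lpl, lipoprotein lipase, was 11.9 in both controls and 11.4 and 11.3 in knockouts, 1.47-fold lower, and the droplet protein Plin2 was 1.25-fold lower and lost its call without control pool 1 or knockout pool 2 (adjusted p = 0.0753 and 0.0516). The rises were of Slc27a1, a fatty acid transporter (1.87-fold), Agpat2, of phospholipid and triglyceride synthesis (1.88-fold), Cyp27a1, a sterol hydroxylase (1.83-fold), and 2 others. The fatty acid scavenger receptor Cd36 was 11.8 in both controls and 11.6 and 11.3 in knockouts (-0.32 ± 0.09, adjusted p = 0.0397), a call lost without any of 5 arrays (adjusted p up to 0.189).

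In fatty acid oxidation, 11 of 23 were lower and 1 higher (7 lower without control pool 2 or without knockout pool 2), with a median of -0.30. Hsd17b4, an enzyme of peroxisomal oxidation, was 10.3 and 10.2 in controls and 8.86 and 8.82 in knockouts, 2.67-fold lower (-1.42 ± 0.07, adjusted p = 1.35e-05), and Cpt2 and Etfdh of the mitochondria were 1.62-fold and 1.65-fold lower. In cholesterol and fatty acid synthesis, 12 of 27 were lower and 1 higher, with a median of -0.38, but only 3 were lower without control pool 2 and 4 without knockout pool 1. Hmgcs1 was 9.57 and 9.47 against 8.21 and 8.62 (-1.11 ± 0.12), and Sqle was 8.44 and 8.74 against 7.42 and 7.79, 1.98-fold lower. These are early and middle enzymes of sterol synthesis. Genes of cholesterol efflux and LXR targets were split, 4 higher and 3 lower of 14 (1 lower without control pool 1 or without knockout pool 2). Nr1h3, which encodes LXRα, was 9.24 and 9.26 against 7.75 and 7.003, 3.66-fold lower, while Apoe, a lipid-carrying protein, was 10.1 and 9.95 against 12.4 and 11.7, 4.03-fold higher, and Apoc2 was 2.63-fold higher. The cholesterol exporter Abcg1 was 1.33-fold lower, a call lost without control pool 1 (adjusted p = 0.0735) or knockout pool 2 (0.0629).

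Glycolysis and low-oxygen response genes were more often higher than lower, 7 (29.2%) and 3 (12.5%) of 24, against 9.34% and 9.29% of all genes. The counts were 3 higher without control pool 1 or without knockout pool 1, 11 higher without either day 2 knockout array, and 1 lower without either control pool. The glucose transporter Slc2a1 was 9.82 and 10.01 against 11.0 in both knockouts, 2.09-fold higher, and the hexokinase Hk2 was 2.03-fold higher. Pdk1, which limits entry of pyruvate into mitochondria, was 1.98-fold lower. Of 38 oxidative phosphorylation genes, 5 were lower and none higher in limma's test (11 lower and 1 higher at an unadjusted p under 0.05, and 13 lower under the ribosomal protein scaling), with a median of -0.07. Lysosomal genes were higher for 13 of 35 (7 without control pool 1 or without knockout pool 1) and lower for none in limma's test (1 at an unadjusted p under 0.05, and 1 called under the ribosomal protein scaling). Cd63, a lysosome and endosome tetraspanin, was 9.39 and 9.48 against 11.3 in both knockouts, 3.60-fold higher (1.85 ± 0.06, adjusted p = 4.53e-06), and the protease genes Lgmn and Ctsl were 1.54-fold and 1.61-fold higher. Iron and heme genes were split, 4 and 4 of 22. The phagosomal metal transporter Slc11a1 was 6.02 and 6.54 against 10.6 and 9.48, 13.4-fold higher, while the transferrin receptor Tfrc was 1.89-fold and the biliverdin reductase Blvra 2.10-fold lower. Of 29 glutathione and NRF2 antioxidant genes, 4 were higher (13.8%) and 3 lower (10.3%), against 9.34% and 9.29% of all genes. The median was -0.0055. Under the ribosomal protein scaling 6 were lower, and fewer than 3 were without control pool 1 or without knockout pool 2. The largest rises were of Gpx3, a secreted peroxidase, 4.65-fold, and of the cystine transporter Slc7a11, 2.40-fold.

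**Figure D3:**
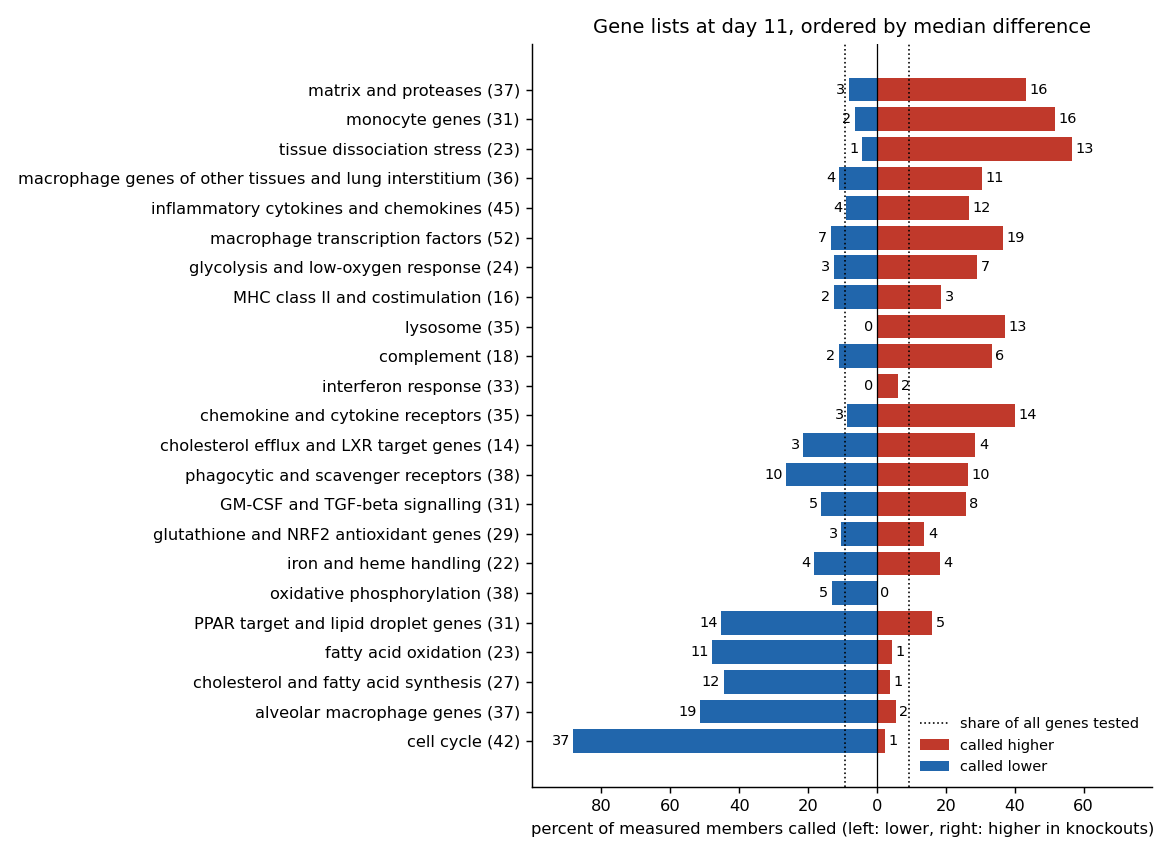
Percent of the measured members of each of 23 gene lists called higher (red, to the right) or lower (blue, to the left) in knockouts at day 11, with the numbers called beside the bars, the members measured in brackets and dotted lines at the shares of all genes tested (9.34% higher, 9.29% lower). Lists are ordered by median difference, from matrix and proteases at the top to cell cycle at the bottom.

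Of the 15 largest rises, Hpse, Papss2, Car6, Elovl7, Kcnn4, Plcb4, Slamf7 and Slc6a8 are in none of the lists. Hpse, heparanase, which cuts heparan sulfate, was 4.54 and 4.77 in controls and 10.4 and 8.87 in knockouts, 31.6-fold higher against a low control signal (4.98 ± 0.49, adjusted p = 0.000321). C3ar1, the receptor of complement C3a, was 5.43 and 5.62 against 10.4 and 10.6, 31.1-fold higher (4.96 ± 0.14, adjusted p = 1.64e-06). Ecm1, a secreted matrix protein, was 6.35 and 6.21 against 10.9 and 10.7, 22.4-fold higher. The groups were far apart in each case, and the knockout pools of Hpse also differed from each other. Papss2, which makes the sulfate donor of sulfated sugars, rose 21.8-fold, the secreted carbonic anhydrase Car6 19.6-fold, the fatty acid elongase Elovl7 15.6-fold, the calcium-activated potassium channel Kcnn4 15.02-fold and the calcium-binding S100a6 13.3-fold. Further rises were of the phospholipase Plcb4 (11.8-fold), the costimulatory ligand Tnfsf9 (10.9-fold), the creatine transporter Slc6a8 (10.1-fold) and Slamf7, a receptor of the SLAM family (10.5-fold, adjusted p = 0.00848, but 0.0668 without control pool 1 and 0.0752 with a trended, robust prior).

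Of 37 matrix and protease genes 16 were higher (43.2%), 12 of them by 2-fold or more, and 3 lower (8.11%). Over all genes 9.34% were higher and 9.29% lower, so the share of falls was near that of all genes. The median was 0.57 (0.36 without knockout pool 1). Mmp8, a collagenase, was 8.06 and 7.64 against 11.1 in both knockouts, 9.38-fold higher (3.23 ± 0.14, adjusted p = 1.13e-05). Mmp12, the macrophage elastase, was 9.05 and 9.38 against 11.4 and 11.7, 5.14-fold higher. Thbs1, a matricellular protein, rose 5.43-fold, the protease inhibitor Timp2 5.08-fold, the membrane protease Adam8 4.80-fold and the plasminogen activator Plau 4.73-fold. The growth factor gene Pdgfa was 2.11-fold higher, while Pdgfc was 2.08-fold and the transglutaminase Tgm2 1.91-fold lower.

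Monocyte genes were higher for 16 of 31 (51.6%) and lower for 2 (6.45%), against 9.34% and 9.29% of all genes, with a median of 0.43. Ccr2, the receptor that draws monocytes to tissue, was 6.23 and 6.08 in controls and 8.28 and 8.54 in knockouts, 4.77-fold higher (2.25 ± 0.10, adjusted p = 1.09e-05). S100a4 was 5.25 and 5.59 against 7.79 and 7.47, 4.63-fold higher, and Cx3cr1, the fractalkine receptor, was 2.57-fold higher. The falls were of Treml4, 9.64 and 9.65 against 7.37 and 7.19 (5.16-fold), and of Spn, 6.29 and 6.20 against 5.59 and 5.73. Plac8 and Ifitm6 were at low signals of 4.58 or less in all 4 pools, and Ly6c2 matched no probe set with 1 gene symbol and was not analysed here. Macrophage genes of other tissues and the lung interstitium were higher for 11 (30.6%) and lower for 4 (11.1%) of 36. C1qb, a subunit of the first complement component, was 6.08 and 6.37 against 8.75 and 8.59, 5.45-fold higher, and C1qc was 4.97 and 5.07 against 7.10 and 6.94, 4.01-fold higher. Their partner C1qa was 2.25-fold higher, a call lost without control pool 1 (adjusted p = 0.0573). Trem2, a lipid-sensing receptor, was 2.97-fold higher, and Mertk, which engulfs dying cells, was 1.68-fold lower. In the complement list 6 of 18 were higher (33.3%) and 2 lower (11.1%), with fewer lower when any 1 day 11 array was left out. Itgam and Itgax, which encode CD11b and CD11c of the gate, are among the 6. The C5a receptor C5ar1 was at 11.1 and 10.9 against 10.3 and 9.91 (1.84-fold lower).

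Of 16 genes of MHC class II and costimulation, 3 were higher (18.8%) and 2 lower (12.5%), against 9.34% and 9.29% of all genes. These small counts changed when some single day 11 arrays were left out. The costimulatory ligand Cd86 was 8.24 and 8.12 against 9.81 and 9.95, 3.25-fold higher, and Cd80 was 1.61-fold higher. H2-Oa, which restrains peptide loading, was 2.48-fold lower. The class II chains differed between the knockout pools. H2-Ab1 was 7.83 and 8.24 in controls and 8.11 and 9.38 in knockouts (0.71 ± 0.35, adjusted p = 0.227). Cd74, the invariant chain, was 8.39 and 8.75 against 8.79 and 9.81 (0.73 ± 0.28, adjusted p = 0.126). Without knockout pool 1 these differences were 1.35 and 1.25 and both genes were called, but the knockout group was then the 1 higher pool, with its spread taken from the other groups.

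Inflammatory cytokine and chemokine genes were higher for 12 of 45 (26.7%) and lower for 4 (8.89%), with a median of 0.20. Over all genes 9.34% were higher and 9.29% lower, so the share of falls was near that of all genes. Ptgs2, the inducible prostaglandin synthase, was 7.98 and 7.90 against 11.1 and 10.8, 8.14-fold higher (3.03 ± 0.16, adjusted p = 2.36e-05). Csf1, the macrophage growth factor, was 5.46 and 5.60 against 8.46 and 8.35, 7.32-fold higher (adjusted p = 1.64e-06). Cxcl16 rose 5.17-fold, the monocyte attractant Ccl2 3.78-fold and the neutrophil attractant Cxcl1 3.02-fold. Ccl7 was 4.07-fold higher, a call lost without control pool 2 (adjusted p = 0.0538), and Cxcl10 was 2.51-fold higher with calls lost without any 1 day 11 array (adjusted p from 0.0769 to 0.157). Ccl17, which attracts CCR4-bearing T cells, went the other way, 10.4 and 11.0 in controls against 8.09 and 8.92, 4.57-fold lower. Genes that tissue dissociation induces were also higher, 13 of 23 with 1 lower and a median of 0.35. Fewer of them were higher when any 1 day 11 array was left out. None is in the inflammatory list, but Socs3 is in the GM-CSF and TGF-beta list. Several, Egr3 among them, are in the transcription factor list. Socs3, a feedback inhibitor of cytokine signalling, was 6.50 and 7.22 against 9.49 and 9.68, 6.61-fold higher, and Ier3 was 2.19-fold higher. The part of dissociation in the inflammatory and transcription factor rises was not tested.

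Receptors for chemokines and cytokines were higher for 14 of 35 (40%) and lower for 3 (8.57%), against 9.34% and 9.29% of all genes. The share of falls was thus near that of all genes. Il7r, a receptor chain best known from lymphocytes and from fetal monocytes, was 6.22 and 6.92 in controls and 10.3 and 9.71 in knockouts, 11.0-fold higher (3.46 ± 0.32, adjusted p = 0.000264). Its promoter is shown because, of the 30 genes with the largest changes, it alone among those with a RefSeq promoter held AGGAAGT, a site of the myeloid factor PU.1 (searched on both strands, 250 bases before the start, RefSeq, GRCm38.p6, chr15:9529877-9530126, minus strand). Capitals mark the match, which lies on the opposite strand from -49 to -43.
Il7r: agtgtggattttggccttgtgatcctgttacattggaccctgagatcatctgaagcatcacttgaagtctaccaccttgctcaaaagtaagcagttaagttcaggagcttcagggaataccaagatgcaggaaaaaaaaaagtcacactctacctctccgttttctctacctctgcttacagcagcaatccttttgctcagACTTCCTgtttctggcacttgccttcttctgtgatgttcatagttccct
AGGAAGT was in 7.34% of the promoters of all genes with one (14714 of 18782 genes). Of the 348 genes at least 2-fold higher, 269 had a promoter in the table, and their share is not given here. Cxcr1, an interleukin 8 receptor, was 8.99 and 9.03 against 7.35 and 7.60, 2.90-fold lower, and Csf3r, the receptor of G-CSF, was 8.16 and 8.14 against 7.25 and 6.51, 2.41-fold lower. Phagocytic and scavenger receptors were split evenly, 10 higher and 10 lower of 38 (5 lower without control pool 1, 6 without knockout pool 2). Colec12 and Msr1, scavenger receptors, rose 4.02-fold and 3.38-fold, the inhibitory IgG receptor Fcgr2b rose 2.28-fold, and the activating receptor Fcgr4 was 9.37 and 9.49 against 7.76 and 6.69, 4.60-fold lower.

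Cell cycle genes were the most uniform list. Of 42, 37 were lower, 25 of them by 2-fold or more, and 1 was higher, with a median of -1.09. The list's median signal was 9.05 in both control pools and 8.25 and 8.04 in the knockout pools. Kif23, of cytokinesis, was 10.1 and 9.82 against 8.37 and 8.08, 3.37-fold lower. Tk1, of thymidine salvage, fell 3.36-fold, the spindle checkpoint kinase gene Bub1 3.03-fold, Top2a 2.53-fold, the replication helicase gene Mcm2 2.42-fold and the proliferation marker Mki67 1.91-fold. Proliferation genes still had signals of 6 or more for 39 members in knockouts. Of the D cyclins, which start the cycle, Ccnd1 and Ccnd2 moved in opposite directions. Ccnd2 was 11.2 and 11.3 against 8.62 and 9.16, 5.11-fold lower (-2.35 ± 0.16, adjusted p = 6.09e-05), while Ccnd1 was 6.60 and 6.83 against 8.84 and 9.24, 5.02-fold higher (2.33 ± 0.14, adjusted p = 4.25e-05).

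Transcription factor genes were higher for 19 of 52 (36.5%) and lower for 7 (13.5%), against 9.34% and 9.29% of all genes. Under the ribosomal protein scaling 12 were higher, and both counts fell when any 1 day 11 array was left out. Irf4 was 6.20 and 6.87 against 8.02 and 8.92, 3.82-fold higher, Egr3 was 2.35-fold and Rbpj, the Notch pathway factor, 2.18-fold higher. Egr3 and several other members are also in the tissue dissociation list. Nr1h3 had the largest fall of this list, and Id1, Cebpb and Cebpa were 1.65-fold, 1.51-fold and 1.37-fold lower. In GM-CSF and TGF-beta signalling 8 of 31 were higher (25.8%) and 5 lower (16.1%), with fewer of each when any 1 day 11 array was left out. Socs3 and the TGF-beta inhibitor Smad7 (1.75-fold) were among the rises. Of 33 interferon response genes 2 were higher (6.06%, against 9.34% of all genes) and none lower in limma's test (none at an unadjusted p under 0.05). The higher count was 1 without any 1 day 11 array and 5 without either day 2 knockout array, and the day 11 arrays alone gave 5 higher and 1 lower.

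Markers of other cell types gave no uniform shift. In each of the 10 lists at most 3 members were called higher. Over all genes tested, 9.34% were called higher and 9.29% lower. No member of the mast cell and basophil list (12 genes) or of the erythroid and platelet list (9 genes) was called in limma's test or had an unadjusted p under 0.05, and none reached a mean signal of 6 in either group. Of 10 eosinophil markers 1 was called higher (10%) and 2 lower (20%), the gate gene Siglecf among the lower. Of 22 T and NK cell markers 3 were higher (13.6%), Il7r among them. Of 14 B cell markers 1 was higher (7.14%) and 2 lower (14.3%). For endothelium 2 and 2 of 22 were called (9.09% each), and for fibroblasts and smooth muscle 1 and 1 of 20 (5% each). These small counts moved with single arrays, and without control pool 1 they were 0 higher for eosinophils, 1 lower for B cells, 1 and 1 for endothelium and 0 lower for fibroblasts and smooth muscle. Neutrophil markers were higher for 2 of 15 (Mmp8 and S100a8, 2.51-fold) and lower for 3, and S100a9 was 5.00 and 4.84 against 4.79 and 4.89. Of 21 dendritic cell markers 3 were higher and 4 lower (2 lower without control pool 2 or without either knockout pool). Clec9a was 6.14 and 5.82 against 8.78 and 9.28, 8.27-fold higher, and Irf4, also in this list, was 3.82-fold higher. Ccl17 (4.57-fold) and Ccl22 (1.84-fold) were among the falls. Flt3 and Zbtb46, which mark the lineage, were at 5.09 or less in all 4 pools, a level not shown to be above background. Of 21 alveolar epithelial markers 2 were higher and 5 lower. Pdpn, also a gene of activated macrophages, was 7.20 and 7.16 against 10.5 and 10.2, 9.18-fold higher, and Hopx was 2.77-fold higher, while Ager (1.84-fold) and Epcam (1.97-fold) were lower. Scgb1a1, of airway club cells, was 1.85-fold lower, a call lost without control pool 2 (adjusted p = 0.0847) or knockout pool 1 (0.055). Sftpc, a surfactant gene of epithelium, was 7.97 and 8.54 against 7.84 and 7.42 (-0.63 ± 0.26, adjusted p = 0.162). The median signal of the epithelial list was 6.28 and 6.47 in controls and 6.21 and 6.00 in knockouts. The part of other cells in the results was not tested.

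The knockout pools differed from each other in more genes than the control pools did. In knockouts 65 genes were at least 2-fold apart, 54 of them higher in pool 1, and in controls 2 were. Of the 65, 18 were called. The largest gap was in Xist, the X-inactivation RNA, at 9.99 and 9.86 in controls and 3.46 and 10.3 in knockouts, so knockout pool 1 gave almost no Xist signal. The Y-linked gene Eif2s3y was 8.13 and 8.16 in controls and 9.06 and 8.09 in knockouts, highest in the same pool. None of the 4 sex-linked genes was called, in limma's test or at an unadjusted p under 0.05. The labels give no sex for the pools, and the part of sex in the other gaps was not tested. Mmp2, a gelatinase, was 5.51 and 5.38 in controls and 9.68 and 5.61 in knockouts (adjusted p = 0.214), and Mmp14 was 4.93 and 5.02 against 8.82 and 5.28 (adjusted p = 0.212). Each was high in knockout pool 1 only. Neither was called, and the 4.58-fold and 4.22-fold differences of the group means come from pool 1. Other genes of the same kind, picked after their values were seen, were Igf2r (8.24 and 5.57 in knockouts), Lpcat2 (10.2 and 7.89) and Pla2g7 (10.1 and 8.15, with controls at 6.07 and 6.38, 7.55-fold higher, adjusted p = 0.0307, a call lost without either control or without knockout pool 1). Retnla and Fbp1, also picked after their values were seen, were higher in pool 2, at 4.71 and 6.51 and at 6.80 and 8.32 in knockouts.

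**Figure D4:**
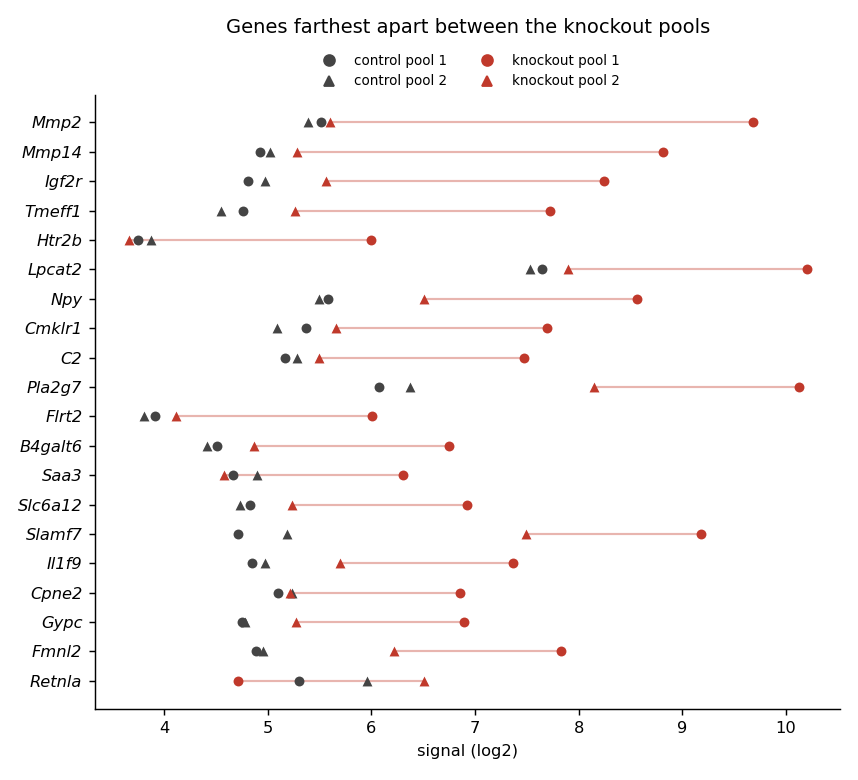
Log2 signal on each day 11 array for 20 genes with the widest gaps between the knockout pools, leaving out Xist, with control pools in grey, knockout pools in red, pool 1 as circles and pool 2 as triangles. For Mmp2 the knockout pools were at 9.68 and 5.61, and the control pools at 5.51 and 5.38.

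The day 11 difference was compared with that of precursors at day 2, where the gates also differed. At day 2 3774 genes were called, and of the 3500 called at day 11, 2056 (58.7%) were called with the same sign at day 2 (54.5% of the day 2 calls), 45 with the opposite sign, and 1399 were not called at day 2. The interaction of genotype and age, which tests whether the difference changed, was called for 615 genes (3.27%), 242 positive and 373 negative. The count was 197 and 215 without control day 2 pool 1 or pool 2, 254 and 248 without the day 11 control pools, 405 without day 11 knockout pool 2 and 942 without knockout day 2 pool 2. Fabp1 differed by -1.05 at day 2 and by -4.79 at day 11 (interaction -3.75, adjusted p = 0.0004). Cidec differed by -4.03 and -4.02 (interaction 0.01, adjusted p = 0.99). Among the rises Ecm1 (2.01 and 4.49) and Car6 (1.60 and 4.29) had larger differences at day 11, and C3ar1 (4.35 and 4.96) had no called interaction. C1qc was higher by 4.85 at day 2 and by 2.00 at day 11, and Ccl17 was higher by 1.16 at day 2 and differed by -2.19 at day 11. Fstl1, a secreted glycoprotein picked after its values were seen, was 7.22 and 7.18 in controls and 10.8 and 10.2 in knockouts at day 11 (9.83-fold) and differed by 0.15 at day 2.

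**Figure D5:**
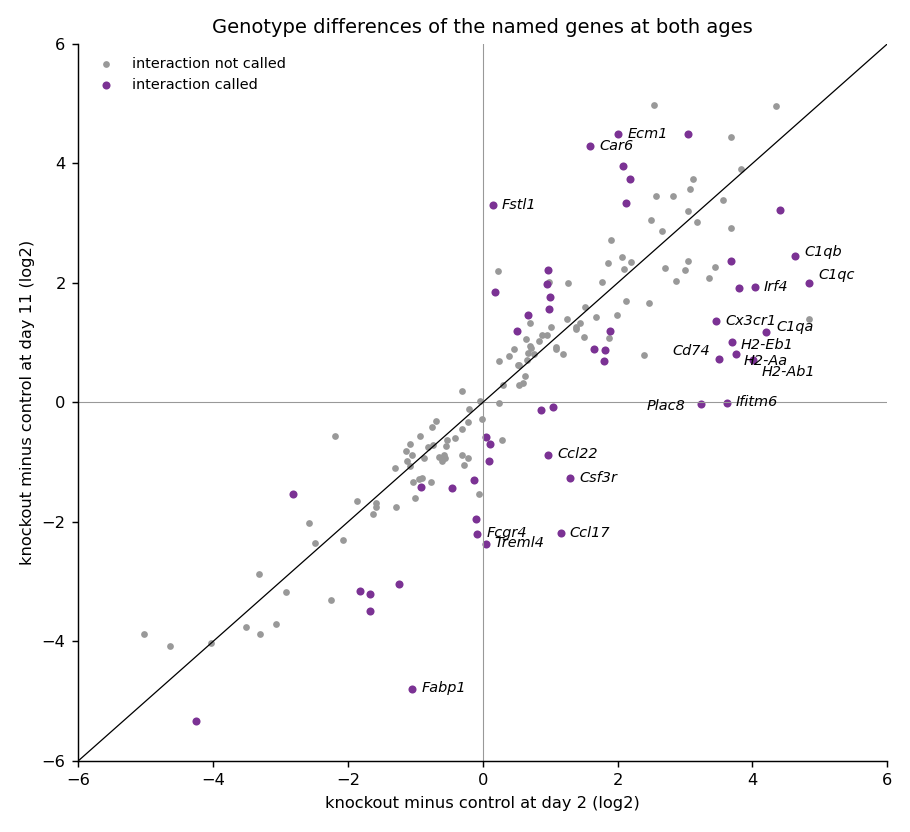
Knockout minus control difference (log2) at day 11 (vertical axis) against day 2 (horizontal axis) for the 172 genes followed by name, with genes whose interaction of genotype and age was called in purple and equal differences on the diagonal. Genes below the diagonal on the right, such as C1qc at 4.85 and 2.00, had a smaller difference at day 11.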

How the data were processed

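Gene expression was measured on Affymetrix arrays of 8 pools, 2 per group. Per the submitters' processing notes, the authors deposited log2 values made with RMA in R 2.15.2, a method that corrects background, aligns the arrays' distributions and summarises probes. The deposited columns share 1 distribution to within 0.026 at every rank, with a median of 5.35. Signal levels of different genes are not comparable, and 2 arrays per group limit the precision.

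Of 28874 probe sets, 21159 had 1 gene symbol in the platform annotation, 1881 had several and 5834 had none, and the last 2 kinds were not used. The probe set of highest mean over 8 arrays stood for a gene, which gave 18782 genes. Limma 3.58.1 in R 4.3.3 fitted 1 mean per group over all 8 arrays (4 residual and 3.77 prior degrees of freedom), with Benjamini-Hochberg adjustment over the 18782 genes. The script was tested on simulated data. Alternatives were other probe set rules, a filter at 6, day 11 arrays alone, a trended robust prior, a replicate block, other scalings, array weights and leaving out each array, where the array left alone in its group is assumed to vary like the other groups.

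The 25 gene lists and 10 marker lists held 976 entries, of which 84 matched no gene tested. Named genes are the 15 largest called rises and falls whose arrays did not overlap, without sex-linked genes and gene models, the gate genes, Pparg, and members of the lists. The comparison and the lists were chosen with earlier results of these data known. Promoters are RefSeq's (GRCm38.p6), found for 14714 genes (78.3%).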

Additional observations from a re-analysis of the deposited data

Results flagged for a closer look

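These named genes had a genotype difference that changed between the ages, either by at least 2 on the log2 scale with a called interaction or with called differences of opposite sign at day 2 and day 11. The interaction is the day 11 difference minus the day 2 difference. It was positive for Fstl1 (3.15), Car6 (2.69) and Ecm1 (2.47), whose rise in knockouts was larger at day 11. It was negative for Fabp1 (-3.75), whose fall was larger at day 11, and for Treml4 (-2.41) and Fcgr4 (-2.12), which were called lower at day 11 and not called at day 2.

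The monocyte genes Ifitm6 (-3.62) and Plac8 (-3.27) were at low signals on all day 11 arrays and higher in knockouts at day 2. The complement genes C1qa (-3.03), C1qc (-2.84) and C1qb (-2.19), the chemokine receptor Cx3cr1 (-2.09), the class II genes H2-Ab1 (-3.29), H2-Aa (-2.95), Cd74 (-2.77) and H2-Eb1 (-2.68) and the factor Irf4 (-2.11) had larger differences at day 2. Ccl17 (-3.35), Csf3r (-2.56) and Ccl22 (-1.84) were higher in knockouts at day 2 and lower at day 11, with calls at both ages.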

How the results depend on the processing

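Of 172 genes followed by name, 143 kept direction and call under all 16 alternatives. The counts of calls stayed within 1.5 times of their value except as follows. Scaling to ribosomal protein genes left 1143 genes higher. Leaving out 1 array at a time gave 2059 to 3760 called genes, 1013 to 1924 higher, 1046 to 1836 lower and 197 to 942 interactions. Signs turned for genes near no difference. Car4 was -0.07 under the ribosomal protein scaling and -0.1 to 0.15 with 1 array left out, where Ifitm6 ran from -0.046 to 0.041, Plac8 from -0.089 to 0.021, Flt3 from -0.278 to 0.031 and Zbtb46 from -0.091 to 0.083. The cause was not tested.

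Same-numbered pools did not deviate together at day 11 (r = -0.053, and 0.25 at day 2), and the labels do not say that a number marks a shared litter or day, so the numbers were not taken to pair the pools. With the replicate number as a block 3233 genes were called, 1636 higher and 1597 lower, with 431 interactions, and 6 of the 16 MHC class II and costimulation genes were higher, with Cd74, H2-Aa and H2-Eb1 called. The number of arrays, the common distribution and signals near background limit these results, and no detection calls were used.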
